A study of Mus musculus with 15 samples.

Results

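The 10 genes of fat cells and of fat synthesis followed here through the whole thymus of 15 mice were Adipoq, Lep, Plin1, Plin4, Cidec, Fabp4, Ucp1, Acaca, Fasn and Scd1. They were chosen by name as a readout of fat in the dissected tissue, with earlier results of these data known. All 10 were among the 19938 genes that the arrays measured with a probe set of exactly 1 gene symbol. The mice were 5-week-old females of 2 strains, NOD.LCMV and NOD.Ln82-LCMV. Each received 0.5 µg of a peptide into a vein, either gp33, a peptide of the lymphocytic choriomeningitis virus, or a control peptide that binds the same class I molecule, Db. The thymus was taken 2 h later, and its total RNA was measured on 1 Affymetrix Mouse Gene 1.0 ST array per mouse. The groups were NOD.LCMV given gp33 (n = 3), NOD.LCMV given the control peptide (n = 3), NOD.Ln82-LCMV given gp33 (n = 5) and NOD.Ln82-LCMV given the control peptide (n = 4). The labels do not say which alleles the strain names stand for and name no batch. Strain and any batch that went with it cannot be told apart. Whether fat cells lay around the thymus or inside it was not measured.

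Fat cells store triglyceride in a droplet that perilipins and CIDE proteins coat, and they release hormones such as adiponectin and leptin. White fat cells hold 1 large droplet, whereas brown fat cells hold many small ones and burn fatty acids for heat through the mitochondrial uncoupling protein UCP1. The thymus is embedded in connective tissue with fat, and brown fat is found in the mediastinum of rodents. Fatty acids are built by acetyl-CoA carboxylase and fatty acid synthase and made unsaturated by stearoyl-CoA desaturase, in fat cells and in many other cells.

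The 10 genes differed from mouse to mouse far more than most other genes did, within the groups. The within-group standard deviation, which is the spread that remains once each group's mean is taken out, was 1.13 log2 for Ucp1, rank 1 of 19938 genes. That of Adipoq was 0.779 (rank 13), of Fabp4 0.664 (rank 29), of Scd1 0.603 (rank 37), of Plin1 0.583 (rank 41) and of Cidec 0.566 (rank 46). Lep (0.438, rank 75), Acaca (0.402, rank 93), Fasn (0.372, rank 112) and Plin4 (0.311, rank 181) followed, so that all 10 lay among the top 1% of genes. The median over all genes was 0.0850. Because the 10 genes were chosen with earlier results of these data known, their ranks are a description. In whole tissue, fewer fat cells and less RNA per fat cell cannot be told apart.

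**Figure D1:**
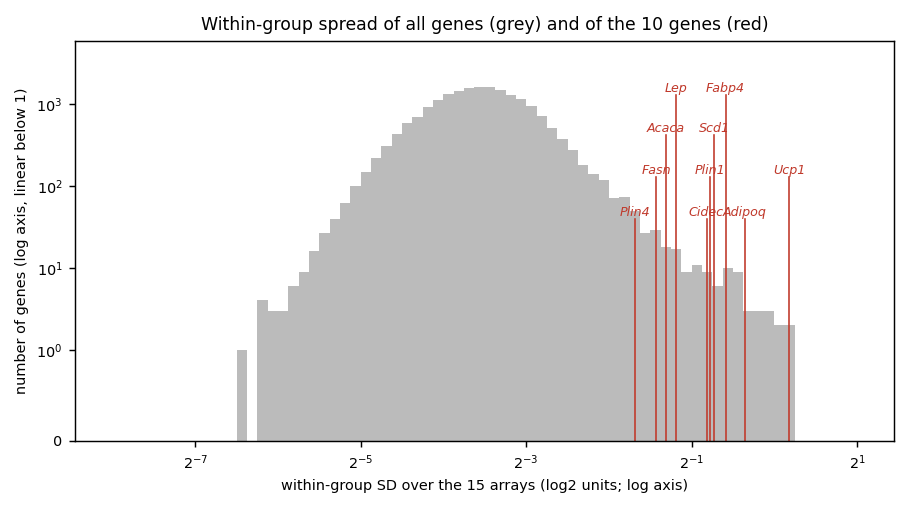
Number of genes (vertical axis, symmetric log scale) by within-group standard deviation (horizontal axis, log2 units on a log scale), for all 19938 genes as grey bars. Red lines mark the 10 fat and lipogenesis genes, and their heights only place the labels. All 10 lie at the right end, with Ucp1 at 1.13 the farthest out.

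The same mice were high or low for most of the 10 genes. NOD.Ln82-LCMV control replicate 2 had the highest value of 7 of the 10, and NOD.LCMV control replicate 3 had the lowest value of 5. The mean of the 10 log2 values was highest in NOD.Ln82-LCMV control replicate 2 (10.50), NOD.LCMV control replicate 1 (10.26) and NOD.Ln82-LCMV control replicate 3 (10.19). It was lowest in NOD.LCMV control replicate 3 (8.73) and NOD.LCMV gp33 replicate 1 (8.96). High and low mice thus occurred side by side in the same group. In 3 mice (NOD.LCMV control replicate 1 and NOD.Ln82-LCMV control replicates 2 and 3) all 10 genes lay above their median over the 15 arrays. In 6 mice none did, and these included all 3 NOD.LCMV mice given gp33.

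**Figure D2:**
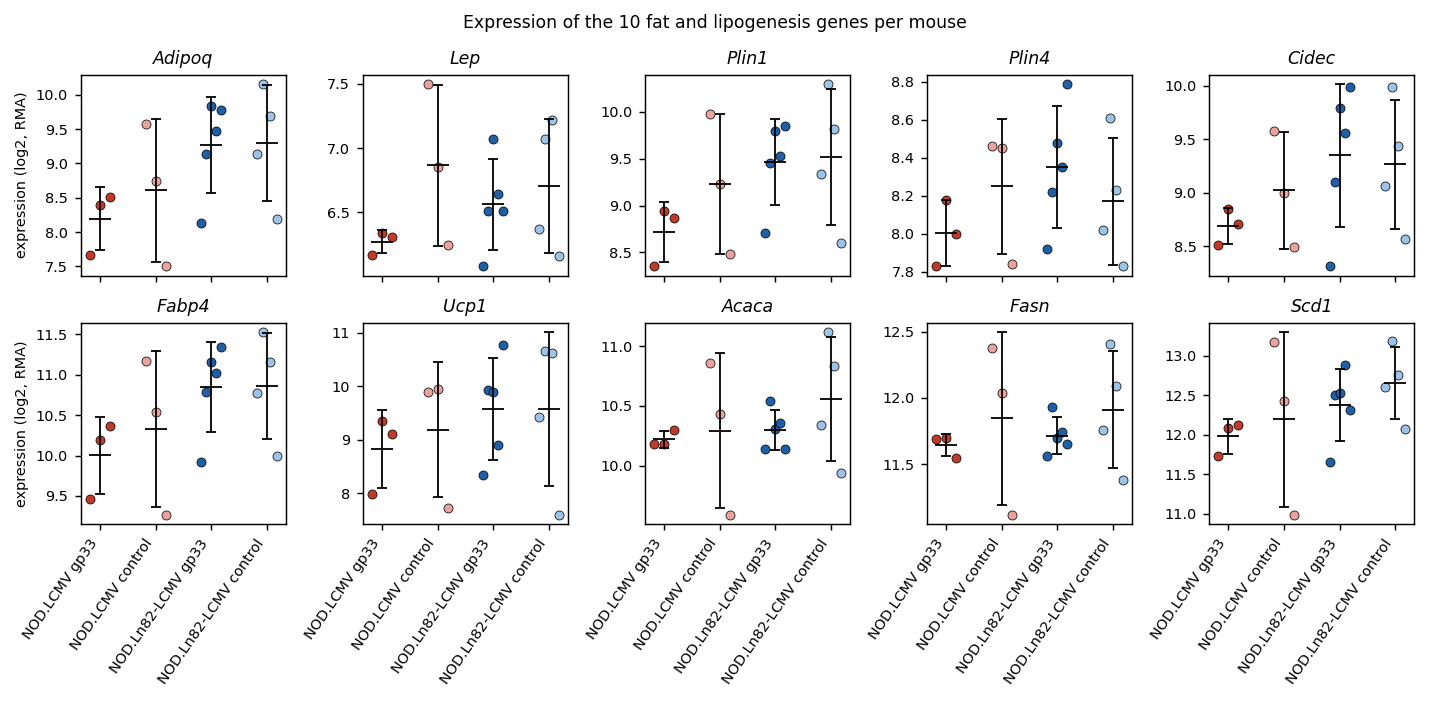
Expression of each of the 10 genes (vertical axes, log2 RMA values) in each mouse, by group (horizontal axes). Points are mice, black bars are the group mean and its SD (n = 3, 3, 5 and 4 from left to right). The groups overlap for every gene, and the spread of a group often exceeds the distance between group means.

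Adipoq encodes adiponectin, a hormone that fat cells secrete (probe set 10434747, chromosome 16). In NOD.LCMV it measured 7.67, 8.40 and 8.51 log2 with gp33, against 9.58, 8.74 and 7.50 with the control peptide. In NOD.Ln82-LCMV it measured 8.13, 9.14, 9.83, 9.47 and 9.77 with gp33, against 9.14, 10.16, 9.69 and 8.19 with the control peptide. The lowest and the highest of all these values both came from control mice, 1 of each strain, and span 6.32-fold. Averaged over the peptides, NOD.LCMV minus NOD.Ln82-LCMV was -0.88 ± 0.35 log2 (SE), a fold of 0.543 with a 95% interval of 0.322 to 0.916, which missed the threshold after adjustment over all genes (limma adjusted p = 0.0804). The difference was -1.07 ± 0.49 with gp33 and -0.69 ± 0.51 with the control peptide, where it was -0.135 without NOD.LCMV control replicate 3 and -1.18 without NOD.LCMV control replicate 1. The gp33 response was -0.41 ± 0.55 in NOD.LCMV and -0.03 ± 0.45 in NOD.Ln82-LCMV.

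Lep encodes leptin, which reports fat stores to the brain (probe set 10536789, chromosome 6). Mice of NOD.LCMV had 6.17, 6.34 and 6.31 log2 with gp33, against 7.50, 6.85 and 6.25 with the control peptide. Mice of NOD.Ln82-LCMV had 6.08, 6.51, 7.07, 6.64 and 6.51 with gp33, against 6.37, 7.07, 7.22 and 6.16 with the control peptide. The 3 gp33 mice of NOD.LCMV were low and close together, and the lowest control mouse lay within their range. Their difference from the control mice was -0.59 ± 0.31, a fold of 0.663 with an interval of 0.420 to 1.05 (limma adjusted p = 0.230), and it was -0.277 without NOD.LCMV control replicate 1 and -0.902 without NOD.LCMV control replicate 3. Averaged over the peptides, the strains differed by only -0.06 ± 0.20. The mean of Lep in every group lay under 6.92 log2, the dim limit used for an alternative, and how far background compressed its differences was not measured.

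The promoters of both hormone genes are shown because the genes varied together. Each window runs from 250 bases before to 50 bases after the start of the RefSeq transcript on the mouse assembly GRCm38.p6, 5′ to 3′ on the gene's strand. Capitals mark the motifs found among 7 that were searched on both strands: the TATA box written as TATAAA, the CCAAT box written as CCAAT, the C/EBP element written as TTNNGCAA, the sterol regulatory element written as TCACNCCAC, the E-box written as CACGTG, the GC box written as GGGCGG and the nuclear receptor half-site written as AGGTCA. Positions count the first base of the transcript as 1, with no position 0. The Adipoq window, chr16:23146286-23146585 on the plus strand, held CCAAT or its complement at -34, -27 and -7. The Lep window, chr6:29059971-29060270 on the plus strand, held a GC box at -98 and the C/EBP letters at -55, where they read the same on both strands.
Adipoq: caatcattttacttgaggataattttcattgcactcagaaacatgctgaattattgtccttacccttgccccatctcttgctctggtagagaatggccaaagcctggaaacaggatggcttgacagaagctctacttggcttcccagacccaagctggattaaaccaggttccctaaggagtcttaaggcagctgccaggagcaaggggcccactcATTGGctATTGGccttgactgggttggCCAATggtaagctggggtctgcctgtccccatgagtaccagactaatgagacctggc
Lep: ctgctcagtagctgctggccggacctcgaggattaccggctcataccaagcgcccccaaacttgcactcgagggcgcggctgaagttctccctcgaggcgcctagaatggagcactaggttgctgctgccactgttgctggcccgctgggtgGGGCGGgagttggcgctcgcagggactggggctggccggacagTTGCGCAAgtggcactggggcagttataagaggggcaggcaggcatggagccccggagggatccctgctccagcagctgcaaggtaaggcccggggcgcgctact
A match is a run of letters and not a measured binding site. CCAAT occurred in 37.4% of the 32851 promoters of the same length, the GC box in 35.7% and the C/EBP letters in 10.8%.

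Plin1 encodes perilipin 1, which coats the droplet of fat cells and gates lipolysis (probe set 10564795, chromosome 7, which also carries Nfkbid). The NOD.LCMV values were 8.35, 8.94 and 8.87 log2 with gp33, against 9.98, 9.23 and 8.48 with the control peptide. The NOD.Ln82-LCMV values were 8.71, 9.45, 9.79, 9.53 and 9.85 with gp33, against 9.34, 10.30, 9.82 and 8.60 with the control peptide. Both strains held mice below 9 and mice near 10, and the strain difference averaged -0.52 ± 0.27 (limma adjusted p = 0.182).

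Cidec encodes the CIDE protein that fuses droplets into a large one (probe set 10546929, chromosome 6). In NOD.LCMV it measured 8.51, 8.85 and 8.71 log2 with gp33, against 9.58, 9.0 and 8.49 with the control peptide. In NOD.Ln82-LCMV it measured 8.31, 9.10, 9.79, 9.56 and 9.99 with gp33, against 9.06, 9.99, 9.44 and 8.57 with the control peptide. The lowest of the 15 values was in a gp33 mouse of NOD.Ln82-LCMV, the strain with the higher mean, and the averaged strain difference was -0.45 ± 0.26 (limma adjusted p = 0.235).

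Plin4 encodes perilipin 4, a coat of small droplets in fat cells (probe set 10451932, chromosome 17). Mice of NOD.LCMV had 7.83, 8.18 and 8.0 log2 with gp33, against 8.46, 8.45 and 7.84 with the control peptide. Mice of NOD.Ln82-LCMV had 7.92, 8.22, 8.48, 8.35 and 8.79 with gp33, against 8.02, 8.61, 8.23 and 7.83 with the control peptide. Its range was the smallest of the 10, 1.95-fold, and the averaged strain difference was -0.14 ± 0.14.

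Plin1 and Cidec are shown with their promoters because both, like Lep, held the C/EBP letters TTNNGCAA in capitals, at -187 and -58 in Plin1 (chr7:79732727-79733026, minus strand) and at -198 in 1 of the 2 listed starts of Cidec (chr6:113434715-113435014, minus strand).
Plin1: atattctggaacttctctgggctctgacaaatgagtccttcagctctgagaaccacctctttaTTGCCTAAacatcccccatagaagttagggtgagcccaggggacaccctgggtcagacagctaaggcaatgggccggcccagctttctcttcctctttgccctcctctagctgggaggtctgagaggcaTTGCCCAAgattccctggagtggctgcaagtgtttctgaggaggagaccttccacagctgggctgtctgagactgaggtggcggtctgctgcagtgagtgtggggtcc
Cidec: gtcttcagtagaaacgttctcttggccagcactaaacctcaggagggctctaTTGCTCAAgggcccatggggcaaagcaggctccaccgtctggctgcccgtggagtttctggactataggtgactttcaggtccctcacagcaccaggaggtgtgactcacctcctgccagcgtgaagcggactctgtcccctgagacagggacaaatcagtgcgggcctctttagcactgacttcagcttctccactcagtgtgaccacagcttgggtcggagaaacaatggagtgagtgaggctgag
Those 3 were the only genes of the 8 with a listed promoter that held the C/EBP letters, so that 3 of 9 promoters had them, against 10.8% of all promoters. No promoter of the 9 held the TATA box (13.6% of all promoters), the E-box (7.15%) or the sterol regulatory element (1.24%), which says only that these letters are not in these windows. Fabp4 and Scd1 have no entry in the table used.

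Fabp4 encodes a fatty acid carrier of fat cells and macrophages (probe set 10497265, chromosome 3). The NOD.LCMV values were 9.46, 10.19 and 10.36 log2 with gp33, against 11.17, 10.54 and 9.27 with the control peptide. The NOD.Ln82-LCMV values were 9.92, 10.79, 11.16, 11.02 and 11.34 with gp33, against 10.77, 11.53, 11.16 and 10 with the control peptide. The control mice of NOD.LCMV alone ran from near the top to the lowest value of the 15. Averaged over the peptides the strain difference was -0.69 ± 0.30, a fold of 0.620 with an interval of 0.396 to 0.968 (limma adjusted p = 0.110).

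Ucp1 encodes the uncoupling protein that defines brown fat (probe set 10573152, chromosome 8). In NOD.LCMV it measured 7.99, 9.36 and 9.11 log2 with gp33, against 9.89, 9.95 and 7.73 with the control peptide. In NOD.Ln82-LCMV it measured 8.34, 9.93, 9.90, 8.91 and 10.78 with gp33, against 9.43, 10.66, 10.63 and 7.60 with the control peptide. The range over the 15 mice was 3.18 log2, or 9.06-fold, and the lowest value sat in the same group as 2 of the 3 highest. The control mice of NOD.Ln82-LCMV alone spanned 8.34-fold. The gp33 response was -0.37 ± 0.80 in NOD.LCMV, a fold of 0.774 with an interval of 0.239 to 2.51, and -0.01 ± 0.65 in NOD.Ln82-LCMV, a fold of 0.994 with an interval of 0.379 to 2.61. Intervals that wide leave room for a change of more than 2-fold either way. The Ucp1 promoter is shown as that of the most variable gene, chr8:83290098-83290397 on the plus strand. Its capitals are the half-site AGGTCA at -14, which 16.3% of all promoters hold.
Ucp1: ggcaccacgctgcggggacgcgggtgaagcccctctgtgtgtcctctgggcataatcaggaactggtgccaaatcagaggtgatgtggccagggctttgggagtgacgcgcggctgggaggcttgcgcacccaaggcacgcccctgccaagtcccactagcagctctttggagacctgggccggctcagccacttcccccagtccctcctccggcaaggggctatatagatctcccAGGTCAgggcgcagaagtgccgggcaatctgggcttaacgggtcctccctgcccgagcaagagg

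Acaca encodes acetyl-CoA carboxylase 1, the committed step of fatty acid synthesis (probe set 10394538, chromosome 11). Mice of NOD.LCMV had 10.18, 10.18 and 10.30 log2 with gp33, against 10.86, 10.43 and 9.59 with the control peptide. Mice of NOD.Ln82-LCMV had 10.14, 10.54, 10.31, 10.36 and 10.14 with gp33, against 10.34, 11.12, 10.83 and 9.94 with the control peptide. The gp33 mice of both strains lay close together, while the control mice of both strains spread above and below them. A further probe set of Acaca (10379820) followed the first across the arrays (r = 0.964), and the averaged strain difference was -0.17 ± 0.18.

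Fasn encodes fatty acid synthase, which makes palmitate (probe set 10393970, chromosome 11). The NOD.LCMV values were 11.69, 11.70 and 11.55 log2 with gp33, against 12.38, 12.04 and 11.12 with the control peptide. The NOD.Ln82-LCMV values were 11.56, 11.93, 11.70, 11.74 and 11.65 with gp33, against 11.76, 12.41, 12.09 and 11.38 with the control peptide. As for Acaca, the SD was smaller with gp33 (0.08 in NOD.LCMV and 0.14 in NOD.Ln82-LCMV) than with the control peptide (0.65 in NOD.LCMV and 0.44 in NOD.Ln82-LCMV), a contrast of spread that was not tested. The averaged strain difference was -0.07 ± 0.17.

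Scd1 encodes stearoyl-CoA desaturase 1, which makes oleate (probe set 10467979, chromosome 19). In NOD.LCMV it measured 11.73, 12.09 and 12.12 log2 with gp33, against 13.17, 12.43 and 10.99 with the control peptide. In NOD.Ln82-LCMV it measured 11.66, 12.51, 12.53, 12.89 and 12.31 with gp33, against 12.60, 13.19, 12.76 and 12.08 with the control peptide. The lowest and the second highest value of all 15 came from the same group, the control mice of NOD.LCMV. The averaged strain difference was -0.43 ± 0.27 (limma adjusted p = 0.296), and -0.129 without the lowest of these mice, NOD.LCMV control replicate 3.

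No comparison of groups called any of the 10 genes. In limma, with adjustment over all 19938 genes and a threshold of 0.05, 0 of 10 were called for the gp33 response in NOD.LCMV, where 19.8% of all genes were called, and 0 of 10 had an unadjusted p under 0.05 (29.0% of all genes). For the gp33 response in NOD.Ln82-LCMV it was 0 of 10 against 0.00502% of all genes, with 0 of 10 under 0.05 unadjusted (5.97% of all genes). The difference between those responses gave 0 of 10 against 8.73%, and 0 of 10 unadjusted (20.5%). Among the strain differences, 0 of 10 were called with the control peptide (10.3% of all genes), with gp33 (27%) and averaged over the peptides (27.7%). Without adjustment 0, 1 (Adipoq) and 2 (Adipoq and Fabp4) of the 10 had a p under 0.05 in those 3 comparisons, against 22.3%, 35.0% and 36.0% of all genes. The groups overlapped for all 10 genes in each of the 4 comparisons of 2 groups. Leaving out a single array moved the count to 2 with gp33 (without NOD.Ln82-LCMV gp33 replicate 1) and to 2 in the average (without NOD.Ln82-LCMV gp33 replicate 1 or control replicate 4, or without NOD.LCMV control replicate 1).

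The means leaned one way without passing the test. All 10 means were lower with gp33 than with the control peptide in NOD.LCMV (median difference -0.33 log2, against -0.03 over all genes), and 8 of 10 were in NOD.Ln82-LCMV (median -0.04, against 0.00). All 10 were lower in NOD.LCMV than in NOD.Ln82-LCMV with gp33 (median -0.53, against -0.02), and 8 of 10 were with the control peptide (median -0.27, against 0.01). The genes move together, so these counts are not 10 separate observations. NOD.LCMV given gp33 had the lowest mean for all 10 genes, and for 6 of them the order upward went on with NOD.LCMV control, NOD.Ln82-LCMV gp33 and NOD.Ln82-LCMV control, none of which was separated from its neighbour. The standard errors were wide, with a median of 0.404 log2 for the 10 genes against 0.0679 for all genes in the gp33 response of NOD.LCMV. The same arrays did separate Nfkbid, a nuclear IκB protein gene named in the title of the series, which averaged 11.47 ± 0.06 with gp33 and 9.33 ± 0.07 with the control peptide in NOD.LCMV (SD, n = 3 each).

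**Figure D3:**
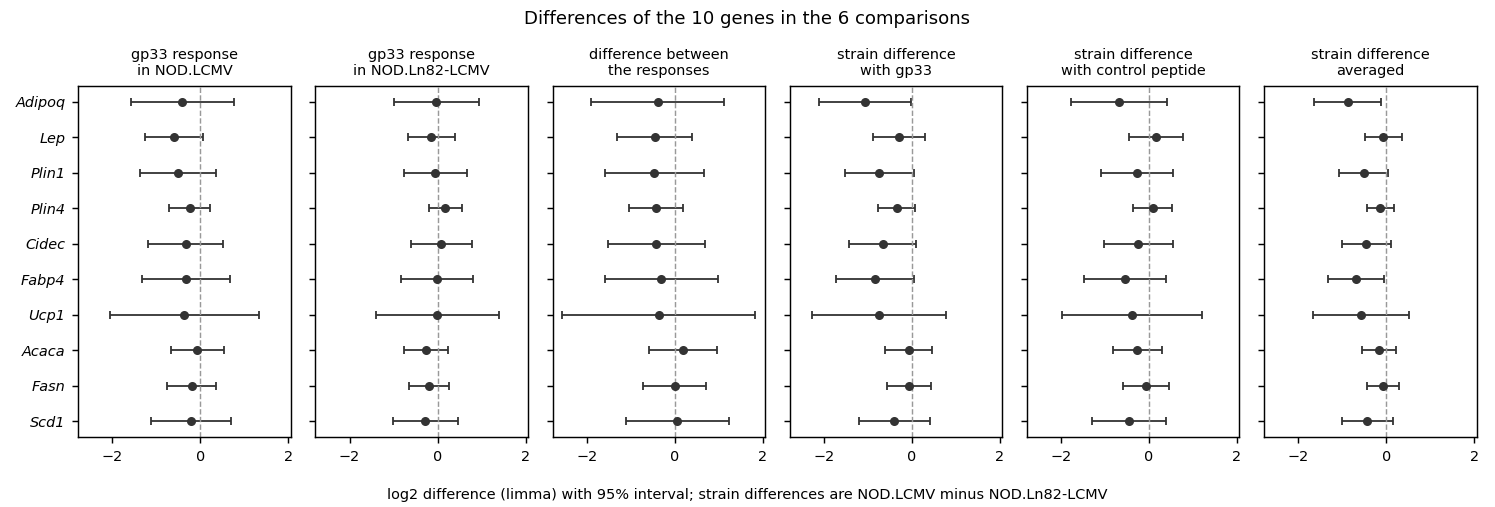
Log2 differences of the 10 genes (points) with 95% intervals from limma (bars) in the comparisons of peptides and strains. Positive values are higher with gp33 or in NOD.LCMV. No gene passes the adjusted threshold of 0.05, and Adipoq averaged over the peptides, at -0.88, is the farthest from 0 relative to its error.

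The other 9 genes varied together with Adipoq across the 15 mice. Pearson's r with Adipoq was 0.993 for Fabp4, 0.979 for Plin1, 0.947 for Cidec, 0.884 for Scd1, 0.867 for Ucp1, 0.849 for Plin4, 0.769 for Lep, 0.754 for Acaca and 0.704 for Fasn. Spearman's rho lay between 0.665 (Fasn) and 0.979 (Fabp4). By permutation with 100000 resamples, all 9 had an adjusted p under 0.05 (Benjamini-Hochberg over the 9), the highest being 0.00306 for Fasn. Without the 2 mice farthest from the median of Adipoq, r ran from 0.635 (Fasn) to 0.992 (Fabp4). With each group's mean subtracted, so that neither strain nor peptide contributes, r was 0.991 for Fabp4, 0.988 for Plin1, 0.887 for Ucp1 and 0.794 for Fasn, and again all 9 passed (highest adjusted p = 0.00032, Fasn). The 10 genes were chosen with earlier results of these data known, so this is a description. The groups have 3 to 5 mice, too few for a correlation in each, and 2 synthesis genes departed from Adipoq in the gp33 groups. In NOD.LCMV given gp33, the mouse with the highest Adipoq (8.51) had the lowest Fasn (11.55). In NOD.Ln82-LCMV given gp33, Acaca was 10.14 both in the mouse with Adipoq at 8.13 and in a mouse with Adipoq at 9.77, and Fasn was highest (11.93) in a mouse with Adipoq at 9.14.

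The slopes differed. Per log2 of Adipoq within groups, Ucp1 moved by 1.29 log2, Fabp4 by 0.84, Plin1 by 0.74, Scd1 by 0.69, Cidec by 0.69, Lep by 0.51, Acaca by 0.42, Fasn by 0.38 and Plin4 by 0.36. Among all 45 pairs, each with an adjusted p under 0.05 over the 45, the 3 synthesis genes were close to one another (r from 0.855 to 0.961, Acaca with Fasn highest). Between a synthesis gene and one of the other 7, r ran from 0.564 to 0.900, with a median of 0.754. Among those 7 the median was 0.867.

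**Figure D4:**
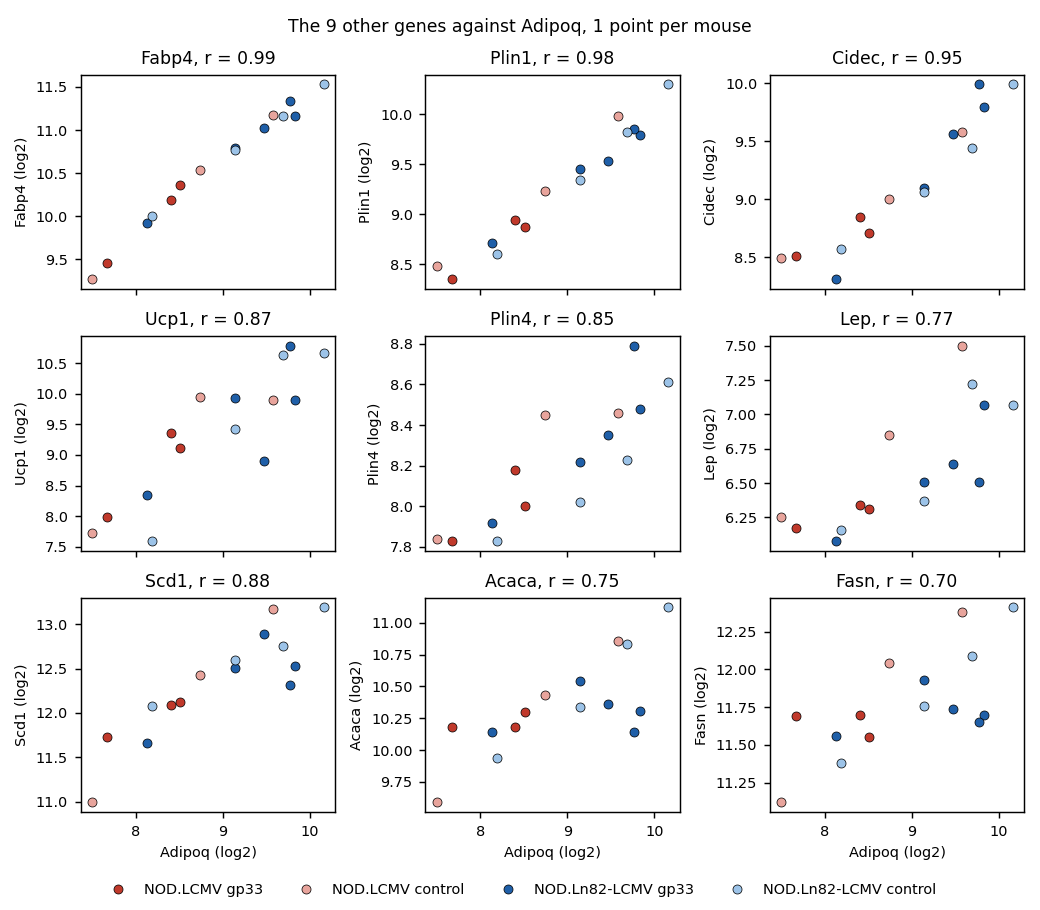
Expression of the other 9 genes (vertical axes, log2) against Adipoq in the same mouse (horizontal axes, log2), 15 mice coloured by group. Fabp4 and Plin1 follow Adipoq most closely (r = 0.993 and 0.979), Fasn least (r = 0.704).

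Genes outside the 10 were ranked by likeness to their mean over the 15 arrays, after exclusions by name that are given below. The first were Slc36a2, an amino acid transporter of fat (r = 0.990), Chpt1, a choline phosphotransferase (0.987), Dgat2, which makes triglyceride (0.985), and Pnpla2, the first lipase of lipolysis (0.981). Next came Cdo1 (0.976), the fatty acid receptor Cd36 (0.975), the glycerol channel Aqp7 (0.972), the brown fat droplet protein Cidea (0.971), glycerol-3-phosphate dehydrogenase Gpd1 (0.967) and caveolin Cav1 (0.965). Within groups, 248 of 19937 genes followed Adipoq with r over 0.8, and 13 ran against it below -0.8.

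The means of other lists of fat genes varied with Adipoq, while many of their single members had a low r. Of the uptake list, with Lpl, Cd36 and Aqp7, 9 of 10 genes were measured and their mean correlated with Adipoq at r = 0.977. The figures were 0.961 for other adipokines (7 of 8 measured), 0.942 for lipolysis (6 of 7), 0.906 for adipocyte transcription factors (8 of 8) and 0.866 for fatty acid and triglyceride synthesis (15 of 15), each with an adjusted permutation p under 0.05 over 16 lists. Single genes had r over 0.8 in 4 of 9 for uptake, 3 of 7 for adipokines, 4 of 6 for lipolysis, 3 of 8 for transcription factors and 7 of 15 for synthesis. Among the rest, r was -0.50 for the secreted lectin Itln1, 0.03 for Nampt, -0.60 for the transcription factor Cebpd, -0.24 for Cebpb and -0.03 for Srebf1. Of 13 measured brown fat genes, 7 had r over 0.8 with Adipoq, and their list mean had r = 0.962. They included Cox8b, a muscle and brown fat subunit of cytochrome oxidase (7.60 to 11.17 log2), Cox7a1, Cidea and Pdk4. Dio2, Prdm16, Elovl3 and Zic1, also of brown fat, had r of 0.24, 0.07, 0.15 and -0.63. Dio2 (6.60 to 6.77 log2), Elovl3 (5.51 to 6.39) and Zic1 (5.59 to 5.80) lay wholly under the dim limit of 6.92 log2. So did Itln1 (5.18 to 5.45) and Cebpd (6.39 to 6.84), whereas Prdm16 (7.10 to 7.38), Nampt, Cebpb and Srebf1 lay above it. How far background shaped the r of the dim genes was not tested. Beyond Cox8b, Cox7a1 and Cidea, these brown fat genes were named after their values were seen, as were Nampt, Cebpb and Srebf1.

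Some of these genes were called between groups, and whether their share differed from that of all genes was not tested. Of all genes, 15.6% were called lower and 12.1% higher in NOD.LCMV averaged over the peptides. After gp33 in NOD.LCMV the shares were 12.5% lower and 7.29% higher. Averaged over the peptides, 1 of 7 other adipokine genes was lower in NOD.LCMV, Retn, the hormone resistin, by -0.99 ± 0.21 (limma adjusted p = 0.00229). Its means were 8.71 ± 0.12 with gp33 and 9.09 ± 0.75 with the control peptide in NOD.LCMV (SD, n = 3 each), against 9.82 ± 0.34 (n = 5) and 9.96 ± 0.50 (n = 4) in NOD.Ln82-LCMV. Among 8 transcription factor genes 3 were lower in NOD.LCMV, Pparg, the master regulator of fat cells (-0.55 ± 0.18, adjusted p = 0.0315), Cebpa (-0.35 ± 0.11) and Klf15 (-0.23 ± 0.05), and Cebpd was higher (0.14 ± 0.04). Among 15 synthesis genes Fads2 (-0.46 ± 0.11), Elovl6 (-0.35 ± 0.10) and Fads1 (-0.14 ± 0.04) were lower, and among 6 lipolysis genes Abhd5 was lower (-0.28 ± 0.08). None of 9 uptake and 13 brown fat genes was called there, in limma. After gp33 in NOD.LCMV, the lists held 2 called genes higher and 4 lower: Nampt (0.86 ± 0.14) and Cebpd (0.23 ± 0.06) were higher, and Scd2 (-0.48 ± 0.08), Lpin1 (-0.43 ± 0.12), Srebf1 (-0.22 ± 0.06) and Pde3b (-0.55 ± 0.18) were lower. All but Cebpd among these 6 were named after their values were seen. In NOD.Ln82-LCMV no gene of these lists was called after gp33.

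Gene lists of other cell types moved with Adipoq to differing degrees. The means of fibroblast and endothelium genes correlated with Adipoq at r = 0.816 and 0.731 (0.915 and 0.871 within groups; 11 of 12 and 12 of 12 genes measured), and their part in the result was not tested. The summed fibroblast level ran from 12.66 to 12.79 log2 with gp33 and from 12.77 to 13.13 with the control peptide in NOD.LCMV, and from 12.76 to 13.03 with gp33 and from 12.73 to 13.14 with the control peptide in NOD.Ln82-LCMV. The summed endothelium level ran from 11.90 to 11.96 with gp33 and from 12.25 to 12.44 with the control peptide in NOD.LCMV, and from 12.11 to 12.22 with gp33 and from 12.16 to 12.26 with the control peptide in NOD.Ln82-LCMV. A sum is carried mostly by the brightest genes of its list. After gp33 in NOD.LCMV, limma called 3 of 12 endothelium and 2 of 11 fibroblast genes lower, against 12.5% of all genes. The endothelium genes called were Eng, Pecam1 and Egfl7, with r to Adipoq of 0.07, 0.22 and 0.42. The fibroblast genes called were Gsn and Pdgfrb (0.65 and 0.42), and all but Gsn were named after their values were seen. Single genes had r over 0.8 with Adipoq in 3 of 12 for endothelium and 2 of 11 for fibroblasts, and those were not called after gp33 in NOD.LCMV. Over the 15 arrays 11 of the 16 lists, those of fat included, had an adjusted p under 0.05. Within groups, the figure was 0.382 for B cells, 0.274 for red cells, 0.041 for macrophages, 0.034 for double-positive thymocytes, 0.008 for thymic epithelium, -0.149 for skeletal muscle, -0.285 for parathyroid and thyroid genes and 0.526 for cholesterol synthesis.

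**Figure D5:**
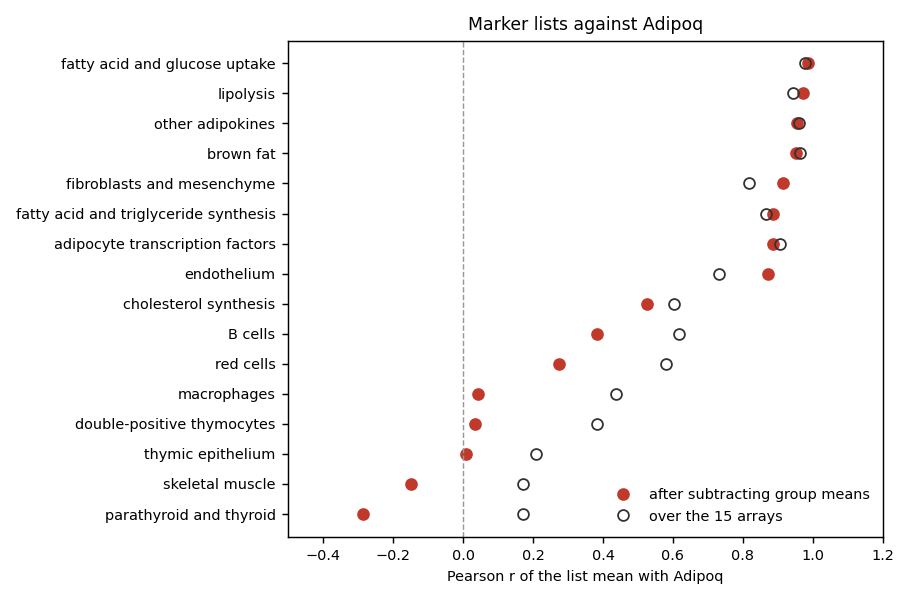
Pearson r between Adipoq and the mean log2 value of each gene list across the 15 arrays (open points) and after subtracting group means (red points). Fat lists lie at 0.87 or above. After the group means are taken out, the fibroblast (0.915) and endothelium (0.871) lists do so too. Macrophage, thymocyte and thymic epithelium lists then lie near 0.

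Comparisons at equal Adipoq asked whether a gene differed beyond what went with the Adipoq value of the array. Adipoq was added to the model as a covariate, a choice made after seeing the data, and 9 genes remained to be tested. In limma, Lep was higher in NOD.LCMV than in NOD.Ln82-LCMV by 0.38 ± 0.11 log2 averaged over the peptides (adjusted p = 0.0204) and by 0.51 ± 0.14 with the control peptide (adjusted p = 0.0373). That was 1 of 9 genes called, against 20.6% of all genes averaged over the peptides, and 1 of 9 against 7.88% with the control peptide. The count was 0 of 9 for the gp33 response in NOD.LCMV (19.6% of all genes) and in NOD.Ln82-LCMV (0.00502%), for the difference between responses (8.48%) and for the strain difference with gp33 (21.7%). Without the covariate, Lep differed by -0.06 ± 0.20 averaged over the peptides and by 0.16 ± 0.29 with the control peptide, and neither was called. Adipoq itself was lower in NOD.LCMV by -0.88 ± 0.35 in the average. The Lep calls thus hold only relative to Adipoq and do not show more Lep in NOD.LCMV. The Lep call averaged over the peptides did not hold once control replicate 1 of NOD.LCMV or control replicate 4 of NOD.Ln82-LCMV was left out. The call with the control peptide was lost without any 1 of the 3 NOD.LCMV control mice, or without NOD.Ln82-LCMV gp33 replicate 2 or control replicate 1, 2 or 4. For Fabp4 the averaged strain difference at equal Adipoq was 0.05 log2 with an SE of 0.0568, against an SE of 0.302 without the covariate.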

How the data were processed

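Total RNA of whole thymus was hybridised to 1 array per mouse, and the sample labels give the strain and peptide of each of 15 mice, with 3 to 5 biological replicates per group. The deposited values are log2 expression of 35556 probe sets, made by the authors with RMA in Affymetrix Expression Console 1.1, per the submitters' processing notes. No further normalization was applied. RMA forces the arrays onto 1 distribution, so a change in most genes at once would not show. Array medians lay between 7.59 and 7.67, and arrays of a group correlated at 0.990 or more. The number of arrays limits the precision.

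Genes were the 21789 probe sets with exactly 1 symbol, taking the one with the highest mean where several remained, which left 19938. The 1621 probe sets with several symbols and the 12146 without annotation were not used. The array annotation's build is not given in the sources used here, so no gene coordinates are printed; promoters come from RefSeq tables of GRCm38.p6, in which 8 of the 10 genes had an entry.

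Group means were fitted to all arrays in 1 model with limma 3.58.1 under R 4.3.3, leaving 11 residual and 14.9 total degrees of freedom. Tests were two-sided, p-values were adjusted by Benjamini-Hochberg across all genes, and a value under 0.05 counted as called. A strain difference is the NOD.LCMV value less the NOD.Ln82-LCMV value. Correlations used 100000 permutations, and the smallest p they can give is 1e-05. The model and the correlation test were tested on simulated data. Named genes were the 10 and up to 4 of each list with the smallest p in the averaged strain difference. Also named were the 10 genes most like their mean, after the exclusions given above, and Nfkbid and Cd69. Other names are marked. The 10 genes and the 16 other lists were chosen with earlier results of these data known. The alternatives were array weights, a replicate block, a fit of the compared groups alone, a variance trend, a limit of 1.5-fold, median centring, a repeated quantile normalization, a filter on genes under 6.92 log2, averaging over probe sets, and leaving out each array. A fit with Adipoq as covariate was added after seeing the data.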

Additional observations from a re-analysis of the deposited data

How the results depend on the processing

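With 15 arrays, 3 to 5 per group, only large differences in such variable genes can be called. The correlations with Adipoq kept their direction and passed the threshold in all 9 pairs under the 3 other settings run for them (group means subtracted, second quantile normalization and the mean over probe sets), and when any 1 array was left out. Of the 10 genes only Acaca has a further probe set, so the mean over probe sets could change only the pair with Acaca. Group comparisons called 0 of 10 genes under most alternatives. With array weights the strain difference with gp33 called 1 gene, Adipoq (-1.21), and the averaged one called 3, Adipoq (-0.99), Fabp4 (-0.76) and Plin1 (-0.63). With only the groups compared, Plin1 (-0.75) was the 1 gene called for the strain difference with gp33. Leaving out 1 array gave 0 to 2 for the strain difference with gp33, with 2 (Adipoq and Cidec) without NOD.Ln82-LCMV gp33 replicate 1. It gave 0 to 2 averaged over the peptides, with 2 (Adipoq and Fabp4) without NOD.LCMV control replicate 1, or without gp33 replicate 1 or control replicate 4 of NOD.Ln82-LCMV. The cause was not tested. At equal Adipoq the counts ran from 0 to 1 for the gp33 response in NOD.LCMV, 0 to 2 for the strain difference with the control peptide, 0 to 1 with gp33 and 0 to 2 averaged. The Lep call with the control peptide was lost without any 1 of 7 arrays.

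Signs of uncalled differences turned in places. Array weights turned Cidec after gp33 in NOD.Ln82-LCMV (-0.13), Scd1 in the difference between responses (-0.15) and Lep between strains with the control peptide (-0.05). Second quantile normalization turned Ucp1 after gp33 in NOD.Ln82-LCMV (0.0194), median centring turned Fasn in the difference between responses (0.0468), and the mean over probe sets turned Acaca between strains with gp33 (0.000667). For the replicate numbers that NOD.Ln82-LCMV mice share, the deviations of same-numbered mice correlated at 0.117, 0.008, -0.050 and -0.226. Whether the numbers mark pairs was not tested. A replicate block called 0 of 10 in all 6 comparisons and turned Cidec after gp33 in NOD.Ln82-LCMV (-0.075).

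Leaving out 1 array turned these, given as ranges. After gp33 in NOD.LCMV they were Acaca (-0.425 to 0.21), Scd1 (-0.82 to 0.27), Adipoq (-0.967 to 0.0733), Fasn (-0.563 to 0.0667), Fabp4 (-0.852 to 0.0983) and Ucp1 (-1.10 to 0.045). After gp33 in NOD.Ln82-LCMV they were Plin1 (-0.354 to 0.213), Lep (-0.325 to 0.0287), Adipoq (-0.395 to 0.261), Cidec (-0.147 to 0.345), Fabp4 (-0.307 to 0.2125) and Ucp1 (-0.668 to 0.352). In the difference between responses they were Acaca (-0.1655 to 0.4695), Scd1 (-0.5425 to 0.5475), Adipoq (-0.940 to 0.100), Fasn (-0.369 to 0.261), Fabp4 (-0.833 to 0.117) and Ucp1 (-1.09 to 0.298). Between strains with the control peptide they were Acaca (-0.5475 to 0.0875), Scd1 (-0.9475 to 0.1425), Plin1 (-0.66 to 0.09), Plin4 (-0.0367 to 0.2825), Lep (-0.155 to 0.47), Fasn (-0.33 to 0.3), Cidec (-0.52 to 0.025) and Ucp1 (-1.05 to 0.34). Averaged over the peptides they were Acaca (-0.31275 to 0.00475), Lep (-0.222 to 0.0907) and Fasn (-0.200 to 0.115). Of the averaged strain differences that kept their sign, those of Scd1 (-0.674 to -0.129), Plin1 (-0.703 to -0.328), Plin4 (-0.193 to -0.0331), Fabp4 (-0.901 to -0.426) and Ucp1 (-0.901 to -0.206) moved by over 1.5 times, each smallest in size without NOD.LCMV control replicate 3. At equal Adipoq, Fabp4 ran from -0.0759 to 0.0750 after gp33 in NOD.LCMV, from -0.0215 to 0.0469 in NOD.Ln82-LCMV, from -0.0786 to 0.0713 in the difference between responses and from -0.00976 to 0.0983 between strains with the control peptide.

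Over all genes, a limit of 1.5-fold left 591 calls after gp33 in NOD.LCMV, 0 in NOD.Ln82-LCMV, 456 in the difference between responses, and, between strains, 110 with the control peptide, 703 with gp33 and 281 in the average. Array weights gave 3175 in the difference between responses and 4350 between strains with the control peptide, where leaving out NOD.Ln82-LCMV control replicate 3, NOD.LCMV control replicate 2 or NOD.LCMV control replicate 3 gave 1188, 1310 and 1049.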

Other observations

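After Ucp1, the most variable genes within groups were Myl4 (SD 1.103 log2, rank 2), Cox8b (1.07, rank 3) and Actc1 (1.00, rank 4). Myl4 and Actc1, which were named after their values were seen, encode a myosin light chain and an actin of heart muscle. Myl4 measured 7.92, 9.24 and 8.87 log2 with gp33 and 11.37, 10.60 and 7.93 with the control peptide in NOD.LCMV. In NOD.Ln82-LCMV it measured 8.30, 9.47, 10.02, 9.25 and 10.34 with gp33 and 10.18, 11.13, 10.05 and 8.53 with the control peptide. The highest Myl4 was in NOD.LCMV control replicate 1 (Adipoq 9.58), and NOD.LCMV control replicate 2, with Myl4 at 10.60, had Adipoq at only 8.74. Across the 15 arrays Myl4 correlated with Actc1 at r = 0.988 (rho 0.975) and with Adipoq at r = 0.851 (rho 0.817), and Actc1 with Adipoq at r = 0.811 (rho 0.815). The permutation p adjusted over these 3 pairs was 3e-05, 0.000135 and 0.00039. Without the 2 mice farthest from the median of the first gene of the pair, r was 0.981, 0.759 and 0.700, and within groups it was 0.989, 0.942 and 0.909. Neither gene was called in any of the 6 comparisons (limma; lowest adjusted p 0.315 for Myl4). Genes of skeletal muscle took another course: their list mean was 8.19 log2 in NOD.Ln82-LCMV gp33 replicate 1, a mouse low for Adipoq, and 7.23 to 7.71 in the other 14.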
